A study of Mus musculus with 12 samples.

Results

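DNA replication and licensing genes are described here as a set of 49, named by symbol and matched through the array's gene numbers to 1 probe set each. All 49 were measured, out of 23185 probe sets with a gene symbol and 25206 in all. The set holds the subunits of the origin recognition complex, the factors that load and fire the replicative helicase, the helicase itself, the sliding clamp and its loader, the replicative polymerases, and the enzymes that finish new strands or supply their nucleotides.

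RNA came from mouse pluripotent cells of 2 kinds, induced pluripotent stem cells (iPSC), which are reprogrammed somatic cells, and embryonic stem cells (ESC). Both were female, of C57BL/6 background, and grown without serum or feeder cells in 2iLIF medium on gelatin. The dye TMRM (tetramethylrhodamine methyl ester), a fluorescent cation drawn into mitochondria by their membrane potential, was given to the cells before they were sorted by fluorescence into a high and a low fraction. The 4 groups were iPSC high, iPSC low, ESC high and ESC low, with 3 Affymetrix arrays each, numbered 2, 3 and 4 in the labels. The labels name no genotype, transgene or treatment beyond the medium, the dye and the sort, and they do not name the ESC or iPSC lines, their clones or the reprogramming factors. Nothing in them says that the arrays of a group are separate cultures, and the p-values then measure only how far these samples spread, which may be technical.

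In each cell cycle, origins of replication are licensed in G1, when the origin recognition complex (ORC), Cdc6 and Cdt1 load the Mcm2 to Mcm7 helicase onto DNA in an inactive form. At S phase entry the Cdc7-Dbf4 kinase and cyclin-dependent kinases recruit Cdc45 and the GINS complex, which turns the helicase on, and polymerases then copy both strands. Many of these genes are targets of E2F transcription factors and their mRNA peaks around the G1 to S transition, while pluripotent stem cells in culture have a short G1 and spend much of their cycle in S phase. These arrays read pooled cells, in which fewer cells of one cell cycle stage and less RNA per cell cannot be told apart.

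All values below are log2 expression levels as the authors deposited them, and differences are on the log2 scale, high minus low or iPSC minus ESC. A gene is said to have changed where its adjusted p (limma, adjusted by Benjamini-Hochberg over 25206 probe sets) was under 0.05. The members' mean levels over the 12 arrays ran between 5.34 and 11.14, against a median of 3.56 over all probe sets, and all 49 lay among the probe sets above that median, called the brighter probe sets, which serve below as a second background. The deposited values carry no detection calls, and the number of arrays limits the precision. Array medians lay between 3.51 and 3.61, and correlations across probe sets were 0.991 to 0.994 within groups and 0.986 to 0.994 between groups. All 10 markers of pluripotent cells, among them Pou5f1, Sox2 and Nanog, were above the array median on every array, as were 2 of 10 fibroblast markers (Pdgfrb and Vim) and 2 of 7 blood and macrophage markers (Cd68 and Spi1).

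Promoter sequences came from RefSeq (build GRCm38.p6), as windows of 250 bases before to 50 bases after an annotated start, and were found for 41 of the 49 genes. An E2F-type motif was searched on both strands as TTTCCCGC, TTTGGCGC, TTTCGCGC or TTTGCCGC. It was present for 16 of the 41 genes (39%), against 2.6% of the 27025 genes in the table and 5.01% of the 9287 genes with a brighter probe set. Counted by window of equal length, the shares were 32% of the members' 50 windows and 2.26% of all 32851. The windows of the 4 genes that fell with high potential (below) and of the helicase subunit Mcm6 are printed here, 5′ to 3′ on the gene's strand, with matches to the motif in capitals.
Ung (chr5:114130185-114130484, plus strand): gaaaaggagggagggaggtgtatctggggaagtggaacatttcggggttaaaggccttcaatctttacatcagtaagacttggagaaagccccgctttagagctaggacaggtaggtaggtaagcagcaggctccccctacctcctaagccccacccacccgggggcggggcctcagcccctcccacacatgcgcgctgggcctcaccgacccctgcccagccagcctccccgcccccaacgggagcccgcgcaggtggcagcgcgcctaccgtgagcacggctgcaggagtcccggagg
Cdc6 (chr11:98907901-98908200, plus strand): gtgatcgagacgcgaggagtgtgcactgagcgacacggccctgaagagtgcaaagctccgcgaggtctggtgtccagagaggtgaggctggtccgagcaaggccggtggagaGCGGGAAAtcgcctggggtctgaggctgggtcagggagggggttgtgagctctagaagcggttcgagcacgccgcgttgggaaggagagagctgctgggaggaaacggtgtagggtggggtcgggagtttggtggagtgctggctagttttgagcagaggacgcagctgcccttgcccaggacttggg
Orc6 (chr8:85299382-85299681, plus strand): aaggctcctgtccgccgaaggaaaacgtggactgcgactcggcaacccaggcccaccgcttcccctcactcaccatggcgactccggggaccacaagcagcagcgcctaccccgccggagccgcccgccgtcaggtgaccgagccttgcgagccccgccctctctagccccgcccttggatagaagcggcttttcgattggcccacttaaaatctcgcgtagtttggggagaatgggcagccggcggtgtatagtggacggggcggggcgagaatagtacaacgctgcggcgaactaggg
Pole2 (chr12:69228141-69228440, minus strand): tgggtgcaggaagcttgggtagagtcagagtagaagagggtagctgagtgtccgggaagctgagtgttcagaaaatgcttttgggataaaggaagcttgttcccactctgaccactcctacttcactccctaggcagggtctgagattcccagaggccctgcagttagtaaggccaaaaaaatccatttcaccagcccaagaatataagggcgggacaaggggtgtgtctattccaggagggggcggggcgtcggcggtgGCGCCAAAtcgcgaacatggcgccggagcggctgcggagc
Mcm6 (chr1:128359656-128359955, minus strand): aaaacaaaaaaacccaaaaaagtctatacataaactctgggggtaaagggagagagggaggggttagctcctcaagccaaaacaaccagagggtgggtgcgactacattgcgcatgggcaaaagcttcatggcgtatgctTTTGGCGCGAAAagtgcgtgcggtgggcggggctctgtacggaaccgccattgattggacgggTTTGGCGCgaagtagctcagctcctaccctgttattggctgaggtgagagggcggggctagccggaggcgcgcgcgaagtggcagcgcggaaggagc
Cdc6 held 1 match, beginning 138 bases before its start, and Pole2 held 1, beginning 10 bases after it. Mcm6 held 3 matches, at 110, 106 and 47 bases before the start, of which the first and second overlap. The Ung and Orc6 windows held none, which says only that these letters are not in these windows. Matches were also present for Mcm3, Mcm5 and Mcm7, for Orc1 and Orc3, for Cdt1 and Dtl, and for Gins3, Rfc3, Pola1, Pold1, Pold3 and Lig1.

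The first question is how replication gene mRNA differed with membrane potential. Over both cell types 4 members were lower in the high fraction, namely the uracil-DNA glycosylase Ung, the helicase loader Cdc6, the origin recognition subunit Orc6 and the polymerase epsilon subunit Pole2, and 0 members were higher. In percent, Ung fell by 29.7%, Cdc6 fell by 27.5%, Orc6 fell by 21.9% and Pole2 fell by 15.5%. That is 8.16% of the members called lower, against a background of 0.905% lower (1.6% higher) of all probe sets and 1.51% lower of the brighter probe sets. With each array centred on its median, the split over all probe sets was 361 higher and 368 lower, against 403 higher and 228 lower as deposited. The calls above came from a fit without pairing. With high and low arrays of equal number within a cell type as blocks, the split was 523 higher and 417 lower. Pole2 then lost its call, and Cdc7 and Prim1 gained one. The differences of 45 members were below 0, with a median of -0.11 and a range between -0.51 and 0.18, whereas 49.1% of all probe sets and 57.3% of the brighter probe sets were below 0. The medians of those backgrounds were 0.0029 and -0.02.

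**Figure D1:**
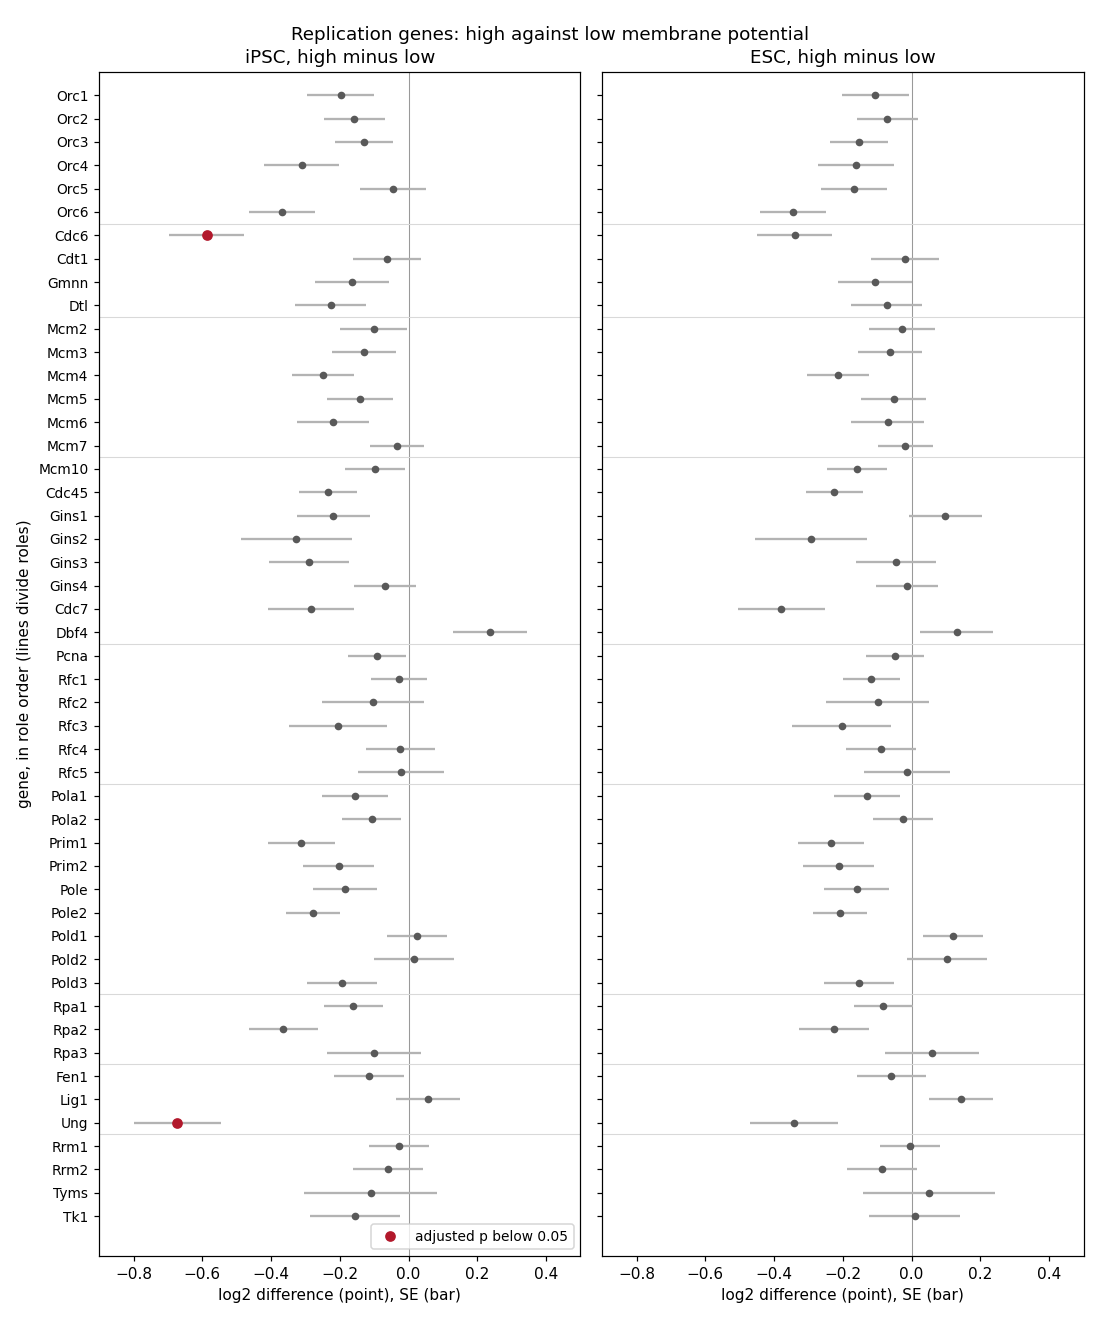
High minus low difference in log2 level of each of the 49 replication genes (points; bars are SE from the limma fit over 12 arrays) in iPSC (left) and ESC (right), with lines dividing the roles. Most points lie left of 0 in both cell types, and Ung (-0.67) and Cdc6 (-0.59) are furthest left in iPSC.

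Ung removes uracil from newly made DNA. Its level was 7.23, 7.64 and 7.35 in iPSC high and 7.93, 8.12 and 8.18 in iPSC low, and 7.96, 7.93 and 7.88 in ESC high and 8.13, 8.17 and 8.49 in ESC low. Every high array lay below every low array of its own cell type, with the widest gap in iPSC. The difference over both cell types was -0.51 ± 0.09 (SE; adjusted p = 0.0104, limma).

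Cdc6, which joins ORC at origins and with Cdt1 loads the helicase, had levels of 6.71, 6.94 and 6.69 in iPSC high and 7.24, 7.52 and 7.35 in iPSC low. In ESC it had 7.08, 6.82 and 6.95 in the high fraction and 7.32, 7.34 and 7.22 in the low fraction. High and low arrays did not overlap in either cell type. The difference was -0.46 ± 0.08 (SE; adjusted p = 0.00734, limma). The 3 other loading genes did not pass: Dtl, part of the ubiquitin ligase that destroys Cdt1 in S phase, was at -0.15, the Cdt1 inhibitor Gmnn at -0.14, and Cdt1 at -0.04 with a 95% interval of -0.19 to 0.11.

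Of the 6 ORC subunits, which together mark the origins, 1 fell and all 6 were below 0, with a median of -0.15. Orc6 stood at 7.81, 7.87 and 7.86 in iPSC high, against 8.09, 8.31 and 8.24 in iPSC low, and at 8.05, 7.90 and 7.92 in ESC high, against 8.37, 8.37 and 8.16 in ESC low. Its arrays did not overlap between the fractions, and the difference of -0.36 ± 0.07 (SE; adjusted p = 0.0157, limma) was made up of -0.37 in iPSC and -0.35 in ESC. Orc4 read 7.27, 7.34 and 7.15 in iPSC high and 7.59, 7.66 and 7.44 in iPSC low, and 7.24, 7.47 and 7.49 in ESC high and 7.60, 7.68 and 7.41 in ESC low. The fractions of Orc4 were apart in iPSC and overlapped in ESC, and the difference of -0.24 ± 0.08 did not pass (SE; adjusted p = 0.148, limma). The other 4 subunits lay between -0.15 for Orc1 and -0.11 for Orc5, and none passed.

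**Figure D2:**
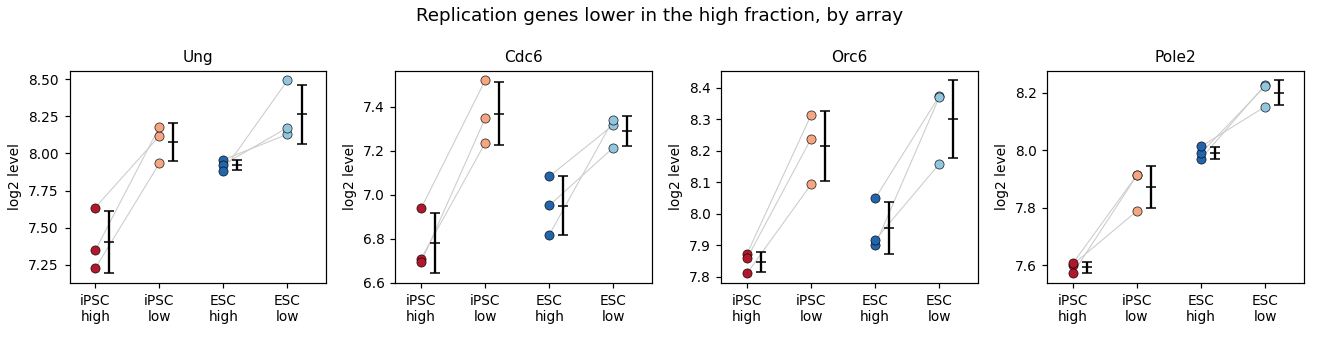
Log2 levels of Ung, Cdc6, Orc6 and Pole2 on each of the 12 arrays (points), with group mean and SD beside them (bars) and grey lines joining arrays of equal number within a cell type; each panel has its own axis, which does not start at 0. In all 4 panels the high arrays of a cell type lie below its low arrays.

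Among the 6 subunits of the Mcm2 to Mcm7 helicase, which unwinds the DNA ahead of the polymerases, none passed, yet all 6 were below 0, with a median of -0.10. They ran between -0.23 for Mcm4 and -0.03 for Mcm7. Mcm4 was at 8.96, 9.13 and 9.04 in iPSC high and 9.27, 9.33 and 9.28 in iPSC low, and at 9.16, 9.09 and 8.93 in ESC high and 9.28, 9.33 and 9.22 in ESC low. These arrays did not overlap between the fractions of either cell type, while the adjusted p was 0.0836 (limma; difference -0.23 ± 0.06, SE). The 95% intervals of Mcm2, -0.21 to 0.08, and Mcm7, -0.15 to 0.10, bound how far these subunits could have differed. Whether the subunits differ from one another was not tested.

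The 8 genes of origin firing held 0 calls, 7 values below 0 and a median of -0.15. Cdc7, the kinase that phosphorylates the loaded helicase, was at 6.80, 6.88 and 7.08 in iPSC high and 6.93, 7.33 and 7.35 in iPSC low, and at 7.22, 7.16 and 7.37 in ESC high and 7.67, 7.52 and 7.69 in ESC low. Its fractions were apart in ESC and overlapped in iPSC. The difference of -0.33 ± 0.09 had an adjusted p of 0.0759, or 0.0329 with the 6 numbered pairs, 3 within each cell type, as blocks (SE, limma). Dbf4, the subunit that activates Cdc7, had the opposite sign at 0.18 ± 0.08 (SE; adjusted p = 0.258, limma), the highest value of all 49 members, and the difference between the 2 genes was not tested.

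Cdc45 travels with the active helicase. It stood at 6.31, 6.45 and 6.45 in iPSC high, against 6.66, 6.66 and 6.60 in iPSC low, and at 6.54, 6.46 and 6.52 in ESC high, against 6.66, 6.77 and 6.78 in ESC low. The fractions did not overlap in either cell type, at -0.23 ± 0.06 (SE; adjusted p = 0.0645, limma). For the GINS subunit Gins2 the levels were 6.72, 6.61 and 7.05 in iPSC high and 6.85, 7.06 and 7.45 in iPSC low, and 6.87, 6.42 and 6.62 in ESC high and 6.97, 6.89 and 6.93 in ESC low. Gins2 was lower in the high array of each of the 6 numbered pairs, but its fractions overlapped in iPSC and it had the widest error of this group (-0.31 ± 0.11, SE; adjusted p = 0.208, limma). The other GINS subunits were at -0.17 (Gins3), -0.06 (Gins1) and -0.04 (Gins4), and Mcm10, which helps start the helicase, at -0.13.

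At the fork, the clamp Pcna, which holds polymerases on DNA, and the 5 subunits of its loader RFC held 0 calls, with all 6 below 0 and a median of -0.07. Pcna was at -0.07 ± 0.06 (SE; 95% interval -0.20 to 0.06), and the loader subunits ran between -0.20 for Rfc3 and -0.02 for Rfc5. Among the 9 genes of polymerases and primase, 1 fell and 7 were below 0, with a median of -0.17. Pole2, the accessory subunit of the leading-strand polymerase epsilon, read 7.60, 7.61 and 7.57 in iPSC high and 7.79, 7.91 and 7.91 in iPSC low, and 7.97, 7.99 and 8.01 in ESC high and 8.23, 8.22 and 8.15 in ESC low. Its fractions did not overlap in either cell type, and the difference was -0.24 ± 0.06 (SE; adjusted p = 0.0401, limma); with those 6 pairs as blocks the adjusted p was 0.0637. Without iPSC low replicate 2 the call held, and without any 1 of the other 11 arrays it was lost, with adjusted p-values of 0.0574 to 0.0994 (limma). The catalytic subunit Pole was at -0.17 and did not pass.

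Prim1, the catalytic subunit of primase, which lays the RNA primers, had 7.30, 7.44 and 7.40 in iPSC high and 7.56, 7.81 and 7.71 in iPSC low, and 7.60, 7.49 and 7.55 in ESC high and 7.89, 7.78 and 7.67 in ESC low. The fractions were apart in both cell types, at -0.27 ± 0.07 (SE; adjusted p = 0.0584, limma, and 0.0457 with the 6 pairs as blocks). Its partner Prim2 was at -0.21, and the polymerase alpha subunits Pola1 and Pola2 at -0.14 and -0.07. The subunits of the lagging-strand polymerase delta had different signs, at -0.17 for Pold3, 0.06 for Pold2 and 0.07 for Pold1, none past the threshold.

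Rpa2, of the complex that coats single-stranded DNA, stood at 7.32, 7.29 and 7.40 in iPSC high, against 7.61, 7.82 and 7.67 in iPSC low, and at 7.54, 7.26 and 7.33 in ESC high, against 7.65, 7.66 and 7.50 in ESC low. Its fractions were apart in iPSC, and in ESC the highest of the high arrays lay above the lowest of the low arrays. The difference was -0.29 ± 0.07 (SE; adjusted p = 0.0512, limma). The 2 further subunits Rpa1 and Rpa3 were at -0.12 and -0.02. Fen1, which trims Okazaki fragments, was at -0.09 and Lig1, which joins them, at 0.10. The 4 genes of nucleotide supply had a median of -0.05, 0 calls and the thymidine kinase Tk1 (-0.07) and the ribonucleotide reductase subunit Rrm1 (-0.02) at their ends. The 95% interval of Rrm1 was -0.15 to 0.12.

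In each of the 6 numbered high-low pairs the members lay mostly below 0. For iPSC 2, 3 and 4, 42, 39 and 43 members were below 0, with medians of -0.15, -0.14 and -0.15. Of the brighter probe sets 56.6%, 57.1% and 62.9% were below 0 in these pairs, with medians of -0.03, -0.04 and -0.07. For ESC 2, 3 and 4, 32, 38 and 41 members were below 0, with medians of -0.09, -0.11 and -0.10. Here 51.1%, 49.5% and 54.2% of the brighter probe sets were below 0, with medians of -0.0083, 0.0024 and -0.0175. In 6 of 6 pairs, 20 members were below 0 and 0 above, while 7.01% of all probe sets and 12% of the brighter probe sets were below 0 in all of them. The share of non-overlapping arrays was worked out over all probe sets only, not over the brighter ones. For 9 members every high array lay below every low array in both cell types, against 1.83% of all probe sets. These were Ung, Cdc6, Orc6, Pole2, Mcm4, Cdc45, Prim1, Pole and Pold3.

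Taken singly, the cell types gave fewer calls. In iPSC 2 members were lower in the high fraction and 0 higher, against 0.198% of all probe sets lower and 0.349% higher. Those shares are 88 higher and 50 lower probe sets, which became 70 higher and 85 lower with each array centred on its median, and 0 higher and 1 lower without iPSC high replicate 4. Ung fell by 37.3% (-0.67 ± 0.13, SE; adjusted p = 0.0392, limma) and Cdc6 fell by 33.5% (-0.59 ± 0.11, SE; adjusted p = 0.0367, limma). Both calls were lost when the 6 iPSC arrays were fitted alone (adjusted p = 0.0845 for Ung and 0.0875 for Cdc6, limma). Leaving out 1 array gave 0 calls without iPSC high replicate 2, iPSC high replicate 4, iPSC low replicate 3, iPSC low replicate 4 or ESC low replicate 3, and 1 call without iPSC high replicate 3, ESC high replicate 3 or ESC low replicate 4. The adjusted p-values of the lost calls (limma) were 0.0504 to 0.166 for Ung and 0.0504 to 0.148 for Cdc6. The median over the 49 members was -0.16, with 45 below 0 (91.8%). Among the brighter probe sets 61.1% were below 0 in iPSC, with a median of -0.04.

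In ESC 0 members were lower and 0 higher by limma, against 0.0516% and 0.305% of all probe sets. By unadjusted p under 0.05 (limma), 9 members (18.4%) were lower and 0 higher. The shares lower by that measure were 3.76% of all probe sets and 4.63% of the brighter probe sets. Cdc7 had the lowest ESC value, -0.38 ± 0.13 (SE; adjusted p = 0.37, limma), ahead of Orc6, Ung and Cdc6, which were at -0.35, -0.34 and -0.34. The median of the members was -0.09, with 41 below 0 (83.7%), against 52.3% of the brighter probe sets, whose median was -0.01. The test of the difference between the cell types, the iPSC effect minus the ESC effect, called 0 members and 0% of all probe sets (limma). By unadjusted p under 0.05, 0 members passed, against 1100 of 25206 probe sets and 364 of the 12603 brighter ones (limma). A gene that passed in iPSC and not in ESC is therefore not shown to differ between them. For Ung the difference of effects was -0.33 ± 0.18 (SE; adjusted p = 1, limma) and for Cdc6 -0.25 ± 0.16 (SE; adjusted p = 1, limma).

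Among 48 further replication genes that were measured, such as replisome accessory and checkpoint factors, 2 fell over both cell types and 0 rose, with 33 below 0 and a median of -0.08. Dscc1, a subunit of the alternative clamp loader that acts in sister chromatid cohesion, fell by 0.61 ± 0.08 (SE; adjusted p = 0.00177, limma), and Atad5, which unloads the clamp, fell by 0.31 ± 0.06 (SE; adjusted p = 0.0129, limma). Chtf18 and Chtf8, the partners of Dscc1 in that loader, were at -0.01 and 0.04. In the list of 13 G1/S regulators 3 fell and 0 rose, with a median of -0.15. Those that fell were the cyclin Ccne2 (-0.74), the retinoblastoma protein Rb1 (-0.72) and the histone mRNA binding protein Slbp (-0.32). For comparison, 0.905% of all probe sets and 1.51% of the brighter probe sets fell. Both lists were chosen with earlier results of these data known.

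Genes of G2 and mitosis moved the other way on the same arrays. Of 24 measured, 16 rose and 0 fell, with a median of 0.37. Over all probe sets 1.6% rose, as did 271 of the 12603 brighter ones. This list too was chosen with earlier results of these data known, so the contrast is not independent evidence. The mean level of the 24 genes per array was 8.33 to 8.40 in iPSC high and 7.93 to 8.00 in iPSC low. In ESC it was 8.22 to 8.36 in the high fraction and 7.87 to 7.92 in the low fraction. The mean level of the 49 replication genes was 7.80 to 7.86 in iPSC high and 7.96 to 8.03 in iPSC low, and 7.94 to 7.98 in ESC high and 8.05 to 8.06 in ESC low. Neither mean overlapped between the fractions of a cell type. The part of cell cycle stage in the members' differences was not tested. None of the pluripotent cell or fibroblast markers changed with potential, and of the blood and macrophage markers 1 of 7 did, Cd68, which rose by 0.82. The part of other cell types in the members' differences was not tested.

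**Figure D3:**
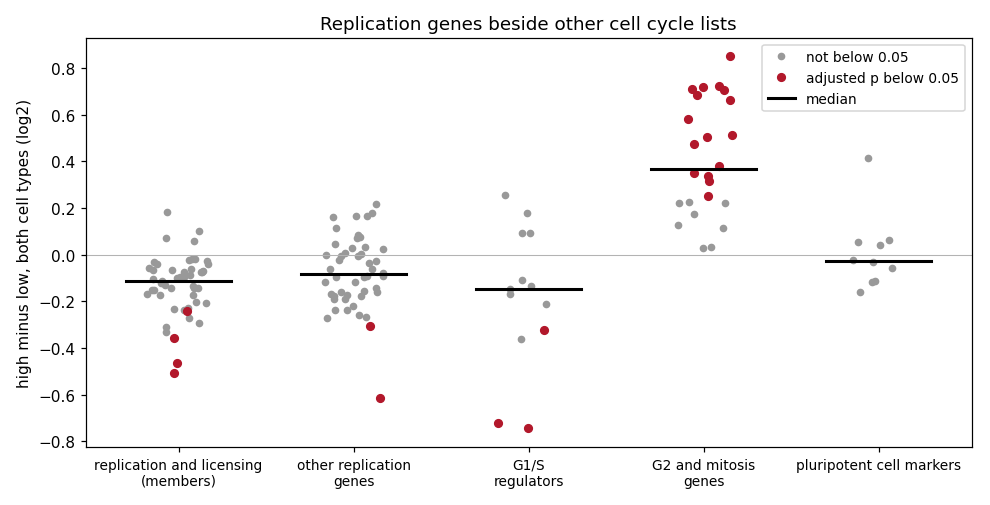
High minus low difference in log2 level over both cell types for the 49 replication and licensing genes, further replication genes, G1/S regulators, G2 and mitosis genes and pluripotent cell markers (points; red where adjusted p was below 0.05; line is the median). The replication genes centre on -0.11 and the G2 and mitosis genes on 0.37.

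The 16 members with an E2F-type match in a promoter window had a median high minus low difference of -0.14 over both cell types, with 14 below 0 and 2 calls. The 25 members whose windows held none had a median of -0.07, with 23 below 0 and 2 calls. Within iPSC the medians were -0.18 with and -0.11 without a match, and within ESC -0.07 with and -0.08 without. The difference between these groups was not tested.

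The second question is how the same genes differed between iPSC and ESC, averaged over the fractions. In this comparison 7 members were lower in iPSC and 0 higher, against a background of 1.96% lower and 0.916% higher of all probe sets and 3.71% lower of the brighter probe sets. The fit took all arrays as independent, although high and low arrays of equal number within a cell type were inferred to be pairs (below). Where pairs share variation, the SE and adjusted p-values of this comparison come out too small. No alternative kept the pair as the unit. The 7 members lower in iPSC are named next. These members were the ribonucleotide reductase subunit Rrm2, the clamp loader subunits Rfc1 and Rfc4, the polymerase epsilon subunits Pole and Pole2, the kinase Cdc7 and the helicase subunit Mcm7. Over all 49 members the median was -0.01, with 30 below 0.

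Rrm2, the regulated subunit of the enzyme that makes deoxyribonucleotides, was at 8.72, 8.84 and 8.65 in iPSC high and 8.68, 8.95 and 8.76 in iPSC low, and at 9.22, 9.34 and 9.16 in ESC high and 9.40, 9.34 and 9.23 in ESC low. All iPSC arrays lay below all ESC arrays, and Rrm2 fell by 30.1% (-0.52 ± 0.07, SE; adjusted p = 0.00264, limma). Its partner Rrm1 was at -0.09 ± 0.06 (SE) and did not pass.

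Rfc1, the large subunit of the loader, was at 7.55, 7.67 and 7.63 in iPSC high and 7.63, 7.71 and 7.59 in iPSC low, and at 8.00, 7.92 and 8.06 in ESC high and 8.09, 8.10 and 8.13 in ESC low. Rfc4 was at 6.98, 7.18 and 7.09 in iPSC high and 7.08, 7.21 and 7.03 in iPSC low, and at 7.31, 7.55 and 7.37 in ESC high and 7.48, 7.62 and 7.41 in ESC low. Neither gene's iPSC arrays reached its ESC arrays, at -0.42 ± 0.06 for Rfc1 (SE; adjusted p = 0.00266, limma) and -0.36 ± 0.07 for Rfc4 (SE; adjusted p = 0.0176, limma). The other loader subunits Rfc2, Rfc3 and Rfc5 were at -0.29, -0.35 and -0.30 without passing, and Pcna at 0.01.

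Pole was at 7.92, 7.97 and 7.76 in iPSC high and 8.12, 8.08 and 8.01 in iPSC low, and at 8.29, 8.14 and 8.32 in ESC high and 8.40, 8.34 and 8.51 in ESC low. Both it (-0.36 ± 0.07, SE; adjusted p = 0.0134, limma) and Pole2 (-0.36 ± 0.06, SE; adjusted p = 0.00497, limma) were lower on every iPSC array than on any ESC array. Mcm7 was at 9.42, 9.38 and 9.40 in iPSC high and 9.42, 9.42 and 9.46 in iPSC low, and at 9.66, 9.65 and 9.67 in ESC high and 9.66, 9.61 and 9.77 in ESC low. Its iPSC arrays all lay below its ESC arrays, and the fractions lay close together (-0.26 ± 0.06, SE; adjusted p = 0.0293, limma), whereas the other 5 helicase subunits were between -0.003 (Mcm6) and 0.07 (Mcm5). For Cdc7 the iPSC low and ESC high arrays overlapped (-0.38 ± 0.09, SE; adjusted p = 0.0406, limma). Cdc7 and Mcm7 each lost the call in 10 of the 12 fits that left out 1 array. Without 1 array the adjusted p (limma) reached 0.1 for Cdc7, without iPSC high replicate 2, and 0.072 for Mcm7, without iPSC high replicate 4. The other 5 genes kept their calls in all 12.

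**Figure D4:**
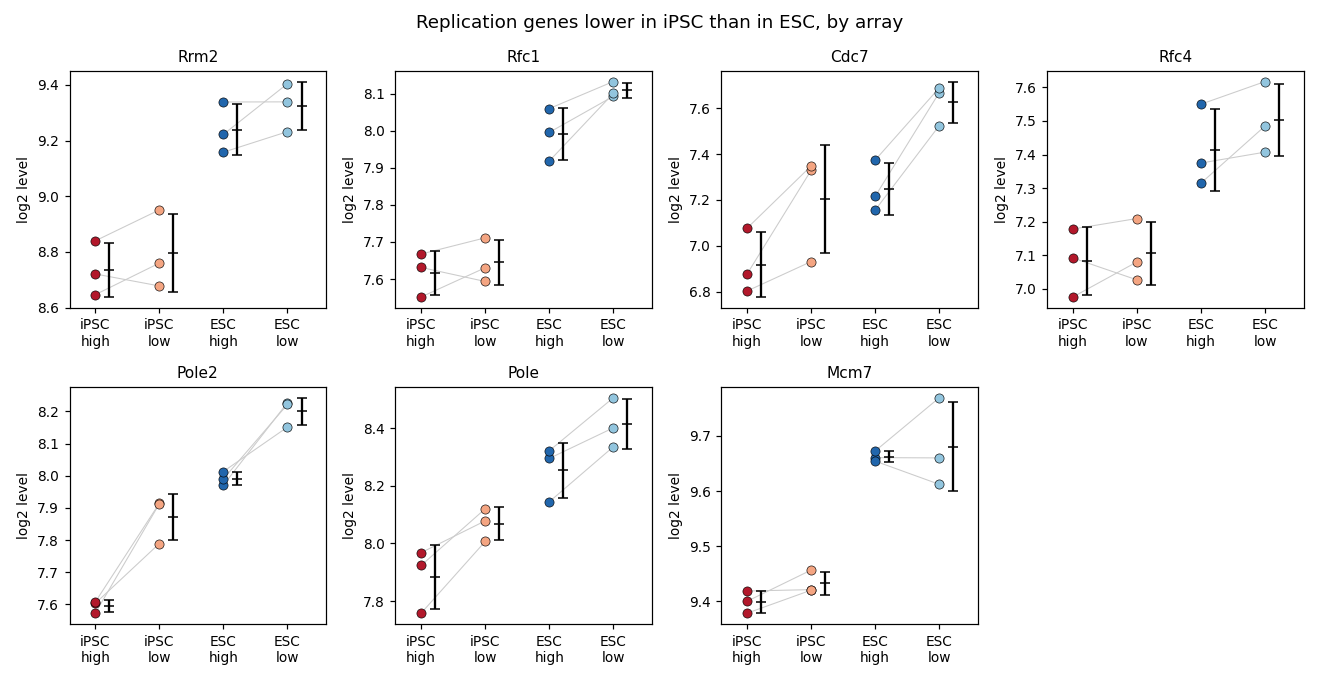
Log2 levels on each of the 12 arrays (points) of the 7 replication genes lower in iPSC, with group mean and SD (bars) and grey lines joining arrays of equal number within a cell type; each panel has its own axis, which does not start at 0. In every panel except that of Cdc7 the 6 iPSC arrays lie below the 6 ESC arrays.

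In total, 8 members had all 6 iPSC arrays below all 6 ESC arrays, against 1.75% of all probe sets (not worked out for the brighter ones). They were the called genes other than Cdc7, together with Orc5 and Rfc5. Of the 7 called genes, 4 are on chromosome 5 (Rfc1, Cdc7, Pole and Mcm7), 2 on chromosome 12 (Rrm2 and Pole2) and 1 on chromosome 16 (Rfc4). All 11 members on chromosome 5 were below 0, with a median of -0.30. In gene order along the chromosome they were Dbf4 (-0.22), Orc5 (-0.23), Tyms (-0.26), Rfc1 (-0.42), Cdc7 (-0.38), Pole (-0.36), Ung (-0.35), Rfc5 (-0.30), Rfc2 (-0.29), Mcm7 (-0.26) and Rfc3 (-0.35).

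Other genes of those chromosomes were lower in iPSC as well. The 752 brighter probe sets of chromosome 5 had a median of -0.24, with 26.1% called lower, and the 475 of chromosome 12 a median of -0.29, with 35.2% called lower. Over the 11376 brighter probe sets elsewhere the median was 0.02, with 0.923% called lower. Off chromosomes 5 and 12, 17 of 36 members were below 0, the median was 0.0046 and 1 was lower, Rfc4. How much of the 13 members' difference on those chromosomes is shared with their chromosomes was not tested.

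**Figure D5:**
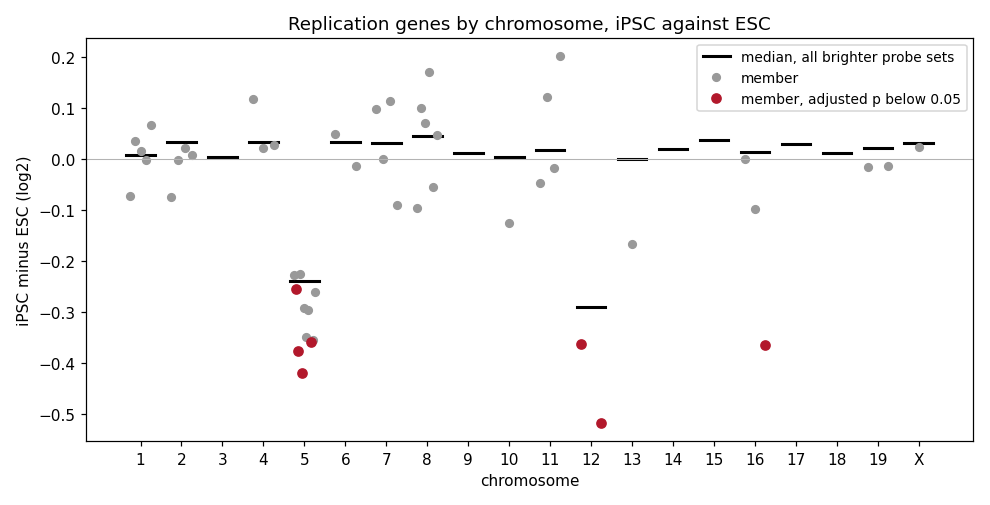
iPSC minus ESC difference in log2 level of each replication gene by chromosome (points; red where adjusted p was below 0.05), with the median of all brighter probe sets of each chromosome (bars). The members on chromosomes 5 and 12 lie between -0.52 and -0.22, and the other members, apart from Rfc4 at -0.36, lie on both sides of 0.

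Within the high fraction alone the iPSC minus ESC difference of Ung was -0.52, and within the low fraction it was -0.19. For Rrm2 the same values were -0.50 and -0.53, for Rfc1 -0.37 and -0.46, and for Pole2 -0.40 and -0.33. Those differences are given without a test of their own, and none of the members passed the test of a difference between the cell types' potential effects. Cdc6 and Orc6, which fell with potential, were at -0.05 and -0.10 in iPSC against ESC and did not pass.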

How the data were processed

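Expression was measured on 12 Affymetrix arrays. The authors deposited log2 values for 25206 probe sets, made with RMA, affy 1.36.1 and R 2.15.1 per the submitters' processing notes; RMA corrects background, normalizes the arrays together by quantiles and summarises each probe set. Chip definition and genome build: not given in the sources used here. Symbols came from the platform annotation: 23185 probe sets had 1 symbol, 0 several and 2021 none, and all 23185 gene numbers were found in a GRCm38.p6 gene table.

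From these values, limma 3.58.1 (R 4.3.3) fitted 1 mean per group over all 12 arrays, with moderated variances and Benjamini-Hochberg adjustment over 25206 probe sets per comparison. The 5 comparisons were high minus low over both cell types, within iPSC and within ESC, the difference of those effects, and iPSC minus ESC. Errors are SE of the fit. Fits were tested on simulated data without pairing. Of 67 probe sets, all from above the median level, given a fall of 0.5 in the high groups, 68.7% were called over both cell types. Within iPSC 37.3% were called and within ESC 34.3%. Smaller falls, such as those of most members, were not simulated. Figures used matplotlib 3.10.9 in Python 3.11.15. Alternatives were a replicate block (the 6 high-low pairs within cell types; for iPSC minus ESC, the number), median centring, trend and robust moderation, dim probe sets left out, the cell type's own 6 arrays, and leaving out each array.

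Residuals of high and low arrays of equal number correlated at 0.107, 0.127 and 0.213 in iPSC and 0.341, 0.233 and 0.283 in ESC, all over 0.1, so the numbers were taken to pair the fractions, an inference from the data. The main fit did not use this pairing, and the replicate block did. Between iPSC and ESC arrays of equal number the correlations ran between -0.0948 and 0.131, and no pairing was assumed there.

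The members and lists were chosen with earlier results of these data known. Array values are given for members past the threshold in any comparison and for the 6 others with the largest difference over both cell types. Of the other lists, Ssrp1, Ccnb1 and Lyz2 were not analysed here.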

Additional observations from a re-analysis of the deposited data

How the results depend on the processing

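Over both cell types, 4 members were lower in the high fraction. The count was 8 with each array centred on its median, 8 with dim probe sets left out and 9 with trend and robust moderation. Those settings called 368 of 25206, 300 of 12603 and 297 of 25206 probe sets lower, against 228 of 25206 in the main fit. Mcm4, Cdc45, Prim1 and Rpa2 gained a call in each of them, and Cdc7 with trend and robust moderation. When 1 array was left out the count of members was 3 to 6. Ung, Cdc6 and Orc6 kept their calls under all 16 alternatives (limma, adjusted p = 0.00279 to 0.0332 for Ung). In iPSC the count of 2 became 0 with the 6 iPSC arrays alone and 0 to 2 when 1 array was left out. For iPSC against ESC the 7 lower members became 9 with dim probe sets left out (Ung and Orc5 added), 10 with trend and robust moderation (Ung, Orc5 and Rfc5 added) and 5 to 6 when 1 array was left out. Leaving out dim probe sets gave 690 lower of 12603 probe sets, and trend and robust moderation 631 of 25206, against 493 of 25206 in the main fit. Over all probe sets, leaving out 1 array gave as few as 118 lower over both cell types (without iPSC high replicate 4), 1 in iPSC (without the same array) and 1 in ESC (without ESC high replicate 2), against 228, 50 and 13 from all arrays. No called value changed sign, and the number of members called higher stayed at 0 under every alternative run.

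With the replicate block, in which each of the 6 high-low pairs within a cell type was its own block and no iPSC array was tied to an ESC array, 5 members were lower over both cell types: Ung, Cdc6 and Orc6 kept their calls, Cdc7 and Prim1 gained one and Pole2 lost one. Over all probe sets the block called 417 lower, against 228 in the main fit. The block moved no other call of high against low among the members. In iPSC against ESC, where the numbers were not taken as pairs, a block on number added Rfc5 (adjusted p = 0.0338, limma) to the 7. Over all probe sets that block gave 511 lower, against 493 in the main fit. With 3 arrays per group, small differences can be missed, and no detection calls separate dim signal from background.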

Other observations

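Besides the E2F-type motif, CCAAT was present in either orientation for 24 of the 41 replication genes with a promoter window (58.5%). The shares were 41.1% of all genes in the table and 43.3% of the genes with a brighter probe set. The letters TTTGAA or TTCGAA, a cell cycle homology region motif, were present for 9 of the 41 (22%), against 21.7% of all genes and 16.1% of those with a brighter probe set. Orc6 held 1 CCAAT match, beginning 54 bases before its start, whereas the printed windows of Ung, Cdc6 and Pole2 held none. These shares were not tested.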
